A study of Mus musculus with 8 samples.

Results

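The genes described here are 10 members of cGMP signalling, out of 36528 gene identifiers listed for each library: the NO synthase gene Nos3, the soluble guanylate cyclase subunits Gucy1a1, Gucy1a2 and Gucy1b1, the natriuretic peptide receptors Npr1, Npr2 and Npr3, the phosphodiesterase Pde5a, and the cGMP-dependent kinases Prkg1 and Prkg2. They were found by Entrez identifier, and all 10 were present and passed the filter on low counts. The study sequenced polyadenylated RNA of primary mesothelial cells, the cells that line body cavities, taken from mouse omentum. There were 4 BAP1 KO libraries and 4 WT libraries. BAP1 is a deubiquitinase of the nucleus whose best-known substrate is ubiquitinated histone H2A, and the comparison sets cells labelled BAP1 KO beside cells labelled WT. The sources used here do not give strain, age, sex, the deleted exons, the way the deletion was made, or whether each library is a separate animal or culture. The p-values therefore cover the spread from library to library, possibly a technical one.

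cGMP is a second messenger made by 2 classes of guanylate cyclase. Nitric oxide, made from arginine by NO synthases, binds the heme of soluble guanylate cyclase, which is a heterodimer of an alpha subunit (alpha-1 or alpha-2) with the beta-1 subunit and needs both to make cGMP. Natriuretic peptides instead act on membrane receptors that carry their own cyclase domain. cGMP then activates protein kinase G and gated channels and is degraded by phosphodiesterases. The pathway is best known for relaxing vascular smooth muscle.

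The members were proposed with results of this same comparison known, among them the low level of Gucy1b1 in BAP1 KO cells. Their values are therefore a description and carry no p-value. Levels are given as counts per 1000000 of the TMM-adjusted library total (CPM), and each log2 fold change is that of BAP1 KO over WT, with the standard error of the edgeR fit. By the call of that fit across all genes, an adjusted p below 0.05, 8 of the 10 members were lower in BAP1 KO and 1, Gucy1a2, was higher, leaving out Nos3, which was called lower but passed the filter only through its WT libraries; of all 16929 genes tested, 61.1% were called, 32.1% lower and 29.0% higher. In 9 of the 10 members the 4 BAP1 KO libraries did not overlap the 4 WT libraries, as in 53.8% of all genes tested. Gucy1b1, Gucy1a1, Npr3 and Prkg2 were lower by at least 2-fold, as were 4.56% of all genes tested, and no member was higher by that much, as were 1.84%.

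Gucy1b1 and Gucy1a2, partner subunits, lay on opposite sides of no change. Theirs were the only upstream windows of members that overlapped neither the gene itself nor an annotated exon, and their letters are shown. Each is the 250 bases before the RefSeq start on GRCm38.p6, written 5′ to 3′ on the strand of the gene. Capitals mark GGGCGG, the letters bound by Sp and KLF factors, and CCAAT, those bound by NF-Y, on either strand (CCAAT reads ATTGG on the other strand).
Gucy1b1, chr3:82074712-82074961, minus strand: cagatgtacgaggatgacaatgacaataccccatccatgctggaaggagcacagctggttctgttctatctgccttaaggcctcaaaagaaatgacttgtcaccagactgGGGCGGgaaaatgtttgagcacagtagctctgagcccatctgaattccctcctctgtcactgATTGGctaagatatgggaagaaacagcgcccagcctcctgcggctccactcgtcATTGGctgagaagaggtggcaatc
Gucy1a2, chr9:3532099-3532348, plus strand: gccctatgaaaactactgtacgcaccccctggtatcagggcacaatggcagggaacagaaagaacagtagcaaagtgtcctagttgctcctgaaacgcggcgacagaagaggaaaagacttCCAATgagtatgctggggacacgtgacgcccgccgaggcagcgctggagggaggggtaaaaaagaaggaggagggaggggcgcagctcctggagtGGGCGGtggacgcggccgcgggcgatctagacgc

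The Gucy1b1 window held 5 CpG dinucleotides and 51.2% G and C, and the Gucy1a2 window 17 CpG and 59.6%, where the median of 32851 RefSeq windows of the same length was 6 CpG and 52.4%. Windows of other members called lower held 6 CpG (Npr3), 9 and 16 (Prkg1), 10 and 12 (Gucy1a1), 13 (Npr2), 21 (Npr1) and 22 (Pde5a). Any link between these letters and the direction of change was not tested. GGGCGG occurred once in each window, as in 32.7% of all windows. CCAAT occurred at 2 positions in the Gucy1b1 window and at 1 in the Gucy1a2 window, and 33.8% of all windows held it. The E box CANNTG was found at 3 positions before Gucy1b1 and at 1 before Gucy1a2, against 66.2% of windows with at least 1. GTAAACA, the letters of forkhead factors, and AAGATGGC, those of YY1, were in neither window, and in 3.17% and 1.56% of all windows. None of these matches overlapped another in the 2 windows. A match is a description of letters only.

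The knockout label was checked first on Bap1 itself. Bap1 stood at 54.0, 53.1, 52.0 and 53.7 CPM in the BAP1 KO libraries, against 63.1, 62.6, 62.9 and 64.2 CPM in the WT libraries. It was lower in every BAP1 KO library, at 84.2% of the WT mean (log2 fold change -0.25 ± 0.03; exact two-sided permutation test, p = 0.029, the smallest that 4 against 4 can give). A count for the whole gene cannot separate exons, and reads outside the deleted part check nothing. Library totals ran from 69.5 to 82.1 M counts in BAP1 KO and from 67.1 to 84.9 M in WT. For the counts of marker calls, the shares over all genes tested were 61.1% called, 29.0% higher and 32.1% lower. Mesothelial markers were present, with 10 of them summing to 1226 to 1237 CPM in BAP1 KO and 1184 to 1214 CPM in WT (3 higher, 5 lower, 2 not passed). They were led by Upk3b, at 463.7 CPM in BAP1 KO and 462.1 CPM in WT, and Upk1b, at 250.6 CPM in BAP1 KO and 229.6 CPM in WT, while Msln was at 3.06 CPM in BAP1 KO and 6.95 CPM in WT. Krt8 (0.793 CPM in BAP1 KO, 2.35 CPM in WT) and Krt18 (4.47 CPM in BAP1 KO, 11.7 CPM in WT) were also lower. Wt1 was higher, at 166.0 CPM in BAP1 KO and 121.2 CPM in WT. Macrophage markers were far above the mesothelial ones: 7 summed to 14071 to 14567 CPM in BAP1 KO and 11701 to 11987 CPM in WT, led by Lyz2 and Csf1r (4 higher, 3 lower). Most of that sum was Lyz2, at 11027 CPM in BAP1 KO and 8388 CPM in WT. Csf1r was at 876.6 CPM in BAP1 KO and 847.5 CPM in WT, and the lower ones were Ptprc, Itgam and Mrc1.

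The beta-1 subunit of soluble guanylate cyclase was the member with the lowest log2 fold change. Gucy1b1 (Entrez 54195; GRCm38 chromosome 3, 82032004 to 82074711) had 1.65, 1.68, 1.61 and 1.86 CPM in the BAP1 KO libraries, on 114 to 135 counts, against 15.4, 14.6, 14.6 and 14.5 CPM in the WT libraries, on 1044 to 1241 counts. All BAP1 KO libraries lay far below all WT libraries, at 11.5% of the WT mean, a log2 fold change of -3.12 ± 0.07. Ordered by log2 fold change, Gucy1b1 was number 10 from the lowest among the 16929 genes tested. The relative SD between libraries was 6.61% in BAP1 KO and 3.02% in WT, and counting alone gives 8.85% in BAP1 KO. In these bulk libraries, fewer cells of a type and less RNA per cell cannot be told apart.

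The alpha-1 subunit, the common partner of beta-1, was also lower. Gucy1a1 (Entrez 60596; chromosome 3, 82092427 to 82145946) had 15.2, 13.8, 13.4 and 13.9 CPM in BAP1 KO, against 51.7, 49.4, 48.1 and 47.0 CPM in WT. The genotypes were well apart, with BAP1 KO at 28.7% of the WT mean and a log2 fold change of -1.80 ± 0.04. The alpha-2 subunit, which forms the other heterodimer, went the other way. Gucy1a2 (Entrez 234889; chromosome 9, 3532349 to 3905791) had 37.8, 39.7, 43.8 and 45.0 CPM in BAP1 KO, against 35.5, 34.6, 34.1 and 31.7 CPM in WT. The lowest BAP1 KO library lay just above the highest WT library, and the log2 fold change was 0.29 ± 0.05. Its relative SD, 8.16% in BAP1 KO and 4.76% in WT, was above the 1.79% and 1.98% of counting.

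**Figure D1:**
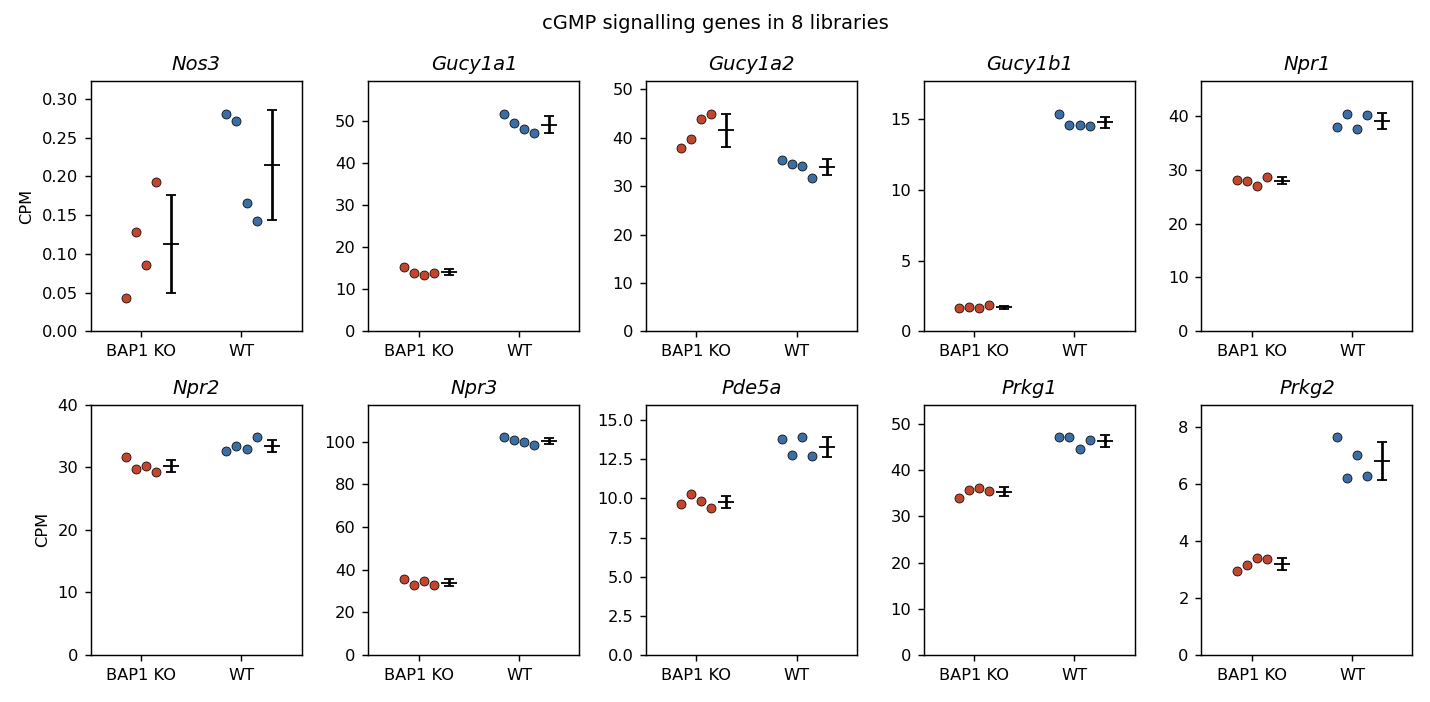
CPM (y axes, linear, each from 0) of the 10 members in the 4 BAP1 KO libraries (red, left) and the 4 WT libraries (blue, right); points are libraries, and the dash and bar beside them are the mean and SD. The genotypes are separate in every panel except Nos3, and Gucy1a2 is the gene with the BAP1 KO libraries on top.

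Set per gene length, by the authors' size-factor-adjusted RPKM, the balance of the 3 subunits was different between the genotypes. Gucy1a1 averaged 2.86 ± 0.17 in BAP1 KO and 9.86 ± 0.40 in WT (SD, n = 4 each), Gucy1a2 3.01 ± 0.24 in BAP1 KO and 2.44 ± 0.12 in WT, and Gucy1b1 0.508 ± 0.033 in BAP1 KO and 4.38 ± 0.13 in WT. Alpha-2 made up 47.0 to 53.8% of the RPKM of the alpha subunits in BAP1 KO libraries, against 19.4 to 20.2% in WT libraries. The 2 alpha subunits together stood at 10.9 to 12.3 times the beta-1 RPKM in BAP1 KO, and at 2.74 to 2.87 times in WT. Within a library the alpha-1 RPKM was 6.28, 5.56, 5.68 and 5.08 times that of beta-1 in BAP1 KO, against 2.27, 2.30, 2.24 and 2.20 times in WT. These shares and multiples depend on the gene lengths behind the RPKM, whose annotation is not named in the sources used here. Exonic lengths in GENCODE vM21 are 6650 bp for Gucy1a2 and 6968 bp for Gucy1a1. In BAP1 KO Gucy1a2 averaged 41.6 CPM and Gucy1a1 14.1 CPM, so by those lengths alpha-2 would stand well above alpha-1. RNA levels do not give the amounts of the proteins or of their dimers.

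**Figure D2:**
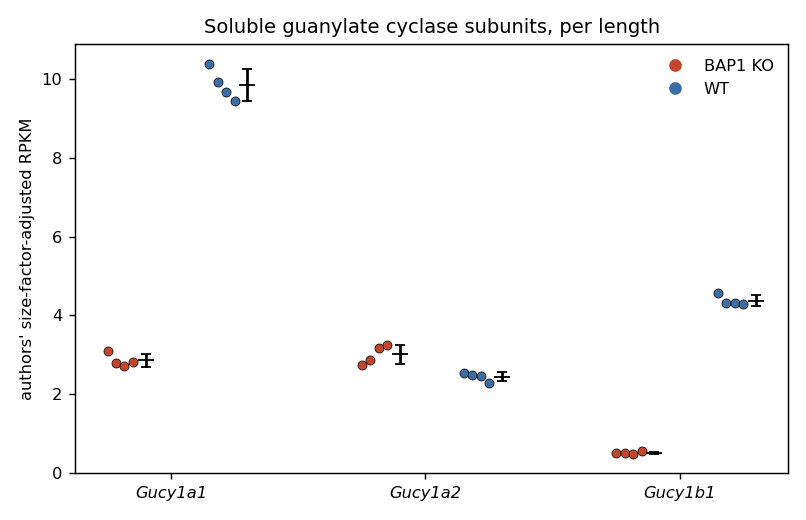
Size-factor-adjusted RPKM (y axis, linear, from 0) of the soluble guanylate cyclase subunits in BAP1 KO (red, left of each pair) and WT libraries (blue), with mean and SD beside the 4 points. In BAP1 KO Gucy1a1 lies near 2.86, Gucy1a2 near 3.01 and Gucy1b1 near 0.508, while in WT Gucy1a1 lies near 9.86 and Gucy1b1 near 4.38.

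Gucy1b1 and Gucy1a1 lie next to each other on chromosome 3, 17.7 kb apart and on the same strand. The tested genes within 500 kb of the pair were Ctso, Mir7010 and Map9. Map9, which encodes a microtubule-associated protein and lies 212 kb beyond Gucy1a1, had 1.31, 1.13, 1.57 and 1.19 CPM in BAP1 KO, against 5.60, 4.01, 4.95 and 4.31 CPM in WT (log2 fold change -1.85 ± 0.11, edgeR adjusted p = 7.6e-15). Ctso, which encodes the protease cathepsin O and lies 75.3 kb on the Gucy1b1 side, averaged 35.2 ± 2.0 CPM in BAP1 KO and 37.3 ± 0.65 CPM in WT (SD, n = 4 each; log2 fold change -0.08 ± 0.04, edgeR adjusted p = 0.044). The call of Ctso ended under 7 of 15 alternatives (RLE factors, DESeq2, and without BAP1 KO replicate 1 or 2 or WT replicate 1, 2 or 3), with adjusted p from 0.013 to 0.27 and a log2 fold change of -0.04 without BAP1 KO replicate 1. Mir7010 lies within Gucy1a1, so its reads cannot be told from those of its host. For the counts of neighbours, the shares over all genes tested were 29.0% called higher and 32.1% lower. Of the 16 genes nearest to the other 8 members, 2 were higher (Rgp1 and Cwf19l2), 9 were lower and 5 did not pass (Aasdhppt, 1810037I17Rik, Ints3, Ilf2 and Tars). Among the lower ones, Kcnh2, a potassium channel gene 13.1 kb from Nos3, was at 1.97 CPM in BAP1 KO and 4.07 CPM in WT (-1.05 ± 0.09, edgeR adjusted p = 1.7e-11), and Asah2, a ceramidase gene 219 kb from Prkg1, was at 28.1 CPM in BAP1 KO and 41.7 CPM in WT (-0.57 ± 0.04, edgeR adjusted p = 8.1e-15). The call of Cwf19l2 (0.12 ± 0.05, edgeR adjusted p = 0.035) ended under 6 alternatives, among them without BAP1 KO replicate 3 or 4 and without WT replicate 2 or 3.

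**Figure D3:**
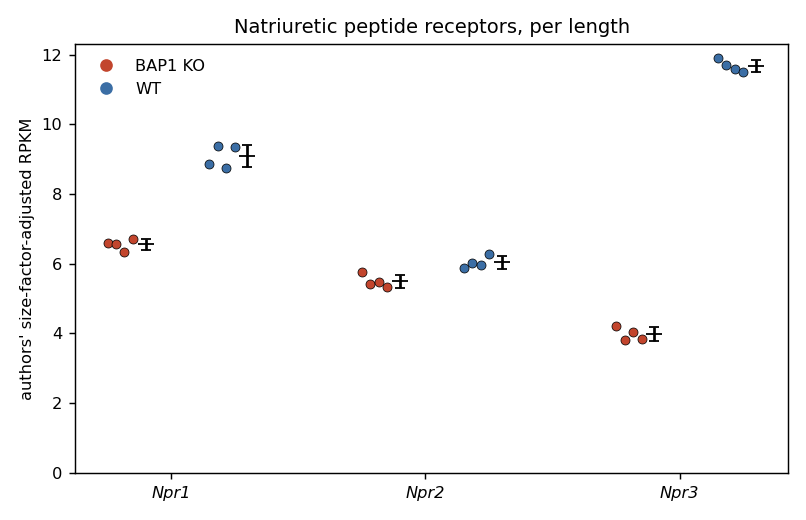
Size-factor-adjusted RPKM (y axis, linear, from 0) of the natriuretic peptide receptors in BAP1 KO (red, left of each pair) and WT libraries (blue), with mean and SD beside the 4 points. Npr3 lies highest of the receptors in WT, near 11.7, and lowest in BAP1 KO, near 3.98.

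All 3 natriuretic peptide receptors were lower in BAP1 KO, by very different amounts. Npr3, which encodes the receptor that binds and clears the peptides and has no cyclase domain, had 35.8, 32.6, 34.5 and 32.8 CPM in BAP1 KO, against 102.0, 100.6, 99.8 and 98.4 CPM in WT. The genotypes were far apart, at 33.8% of the WT mean (log2 fold change -1.56 ± 0.03). Npr1, the receptor of atrial and B-type natriuretic peptide, had 28.1, 28.0, 27.1 and 28.7 CPM in BAP1 KO, against 38.1, 40.5, 37.7 and 40.2 CPM in WT. It stood at 71.6% of the WT mean, without overlap (-0.48 ± 0.03). Npr2, the receptor of C-type natriuretic peptide, had 31.6, 29.8, 30.2 and 29.3 CPM in BAP1 KO, against 32.6, 33.4, 33.0 and 34.8 CPM in WT. The highest BAP1 KO library of Npr2 lay just below the lowest WT library (-0.15 ± 0.03).

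Per gene length, the receptor RPKM summed to 15.8 to 16.6 in BAP1 KO libraries, against 26.3 to 27.1 in WT libraries. Npr3 gave 24.2 to 25.5% of that sum in BAP1 KO and 42.3 to 44.6% in WT. Npr1 stood at 1.57 to 1.75 times the Npr3 RPKM in BAP1 KO, and at 0.745 to 0.815 times in WT. Exons of Npr1, Npr2 and Npr3 overlap annotated transcripts of the opposite strand over 559, 266 and 321 bp in GENCODE vM21, and the library kit does not mark strand, so reads from those stretches cannot be assigned to either.

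The kinases that cGMP activates were both lower. Prkg1, whose kinase mediates relaxation of smooth muscle, had 33.9, 35.7, 36.1 and 35.5 CPM in BAP1 KO, against 47.1, 47.1, 44.5 and 46.5 CPM in WT. BAP1 KO was at 76.3% of the WT mean with no overlap (log2 fold change -0.39 ± 0.03). Prkg2, the membrane-anchored kinase known from intestine, kidney and cartilage, had 2.93, 3.15, 3.39 and 3.35 CPM in BAP1 KO, against 7.63, 6.22, 7.02 and 6.28 CPM in WT. It was at 47.2% of the WT mean (-1.08 ± 0.08), and the WT libraries varied by a relative SD of 9.83%, where counting alone gives 4.43%. Per length, Prkg1 RPKM was 8.91 to 9.72 times that of Prkg2 in BAP1 KO, and 5.18 to 6.36 times in WT.

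Pde5a encodes the cGMP-specific phosphodiesterase that sildenafil inhibits. It had 9.63, 10.3, 9.84 and 9.36 CPM in BAP1 KO, against 13.8, 12.8, 13.9 and 12.7 CPM in WT. BAP1 KO was at 73.8% of the WT mean without overlap (log2 fold change -0.44 ± 0.05). Over 55 bp its exons share the locus with an opposite-strand transcript.

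Nos3, the endothelial NO synthase, was barely detected. It had 0.0433, 0.128, 0.0859 and 0.193 CPM in BAP1 KO, on 3 to 14 counts, against 0.281, 0.271, 0.165 and 0.143 CPM in WT, on 11 to 23 counts. The genotypes overlapped. Nos3 entered the test through its WT libraries, since 1 BAP1 KO library and 4 WT libraries reached the 0.133 CPM of the filter, so nothing is read from its call (log2 fold change -0.92 ± 0.38). The call was absent with DESeq2 and without BAP1 KO replicate 1 or 3 or WT replicate 1 or 2, where the value ran from -0.68 to -0.80 for the left-out libraries. Its exons also overlap those of Gm15587 over 1040 bp and of Atg9b over 294 bp on the opposite strand, and Atg9b itself was at 0.21 CPM in BAP1 KO and 0.862 CPM in WT.

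By RPKM the order of the members was different in the 2 genotypes. It depends on the gene lengths behind the RPKM, whose annotation is not named in the sources used here. In BAP1 KO it ran Npr1 (6.56), Npr2 (5.50), Prkg1 (4.67), Npr3 (3.98), Gucy1a2 (3.01), Gucy1a1 (2.86), Pde5a (1.25), Gucy1b1 (0.508), Prkg2 (0.504) and Nos3 (0.027). In WT it ran Npr3 (11.7), Gucy1a1 (9.86), Npr1 (9.09), Prkg1 (6.08), Npr2 (6.04), Gucy1b1 (4.38), Gucy1a2 (2.44), Pde5a (1.68), Prkg2 (1.06) and Nos3 (0.0512). Neighbours whose libraries overlapped were Gucy1a2 with Gucy1a1 and Gucy1b1 with Prkg2 in BAP1 KO, and Prkg1 with Npr2 in WT.

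The rest of the pathway moved in both directions. Of 55 other genes listed, 37 were tested, and 17 were called higher (Nppc among them), 13 lower and 7 did not pass (edgeR, adjusted p below 0.05), with a median log2 fold change of 0.06, against 0.00 over all genes tested. The shares over all genes tested were 29.0% called higher and 32.1% lower. Among genes that supply NO or encode proteins acting on NO synthases, 5 of 9 tested were higher, 2 lower and 2 did not pass. These calls do not give the direction of NO output, which was not measured. Ddah2 (0.29 ± 0.03, adjusted p = 8.1e-09) and Ddah1 (0.12 ± 0.03, adjusted p = 0.00035), which break down an endogenous inhibitor of NO synthases, were higher by edgeR. So were Nosip (0.28 ± 0.03), a partner of NO synthase, and Gch1 (0.18 ± 0.04), the entry enzyme of tetrahydrobiopterin synthesis, the cofactor of NO synthases. Pts, the next enzyme of that synthesis, was lower (-0.34 ± 0.05), and Spr, which completes it, was higher by 0.10 ± 0.04 on overlapping libraries (edgeR adjusted p = 0.014); the Spr call ended without BAP1 KO replicate 4 (0.09) or WT replicate 3 (0.07), and its adjusted p ranged over 0.0037 to 0.088 in the alternatives. Nostrin, an adaptor that traffics endothelial NO synthase, fell to 2.03 ± 0.12 CPM in BAP1 KO, against 4.93 ± 0.38 CPM in WT (SD, n = 4 each; -1.28 ± 0.09, edgeR adjusted p = 3.9e-14).

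The other NO synthases were low in both genotypes. Nos1, the neuronal form, averaged 0.522 ± 0.11 CPM in BAP1 KO and 0.629 ± 0.17 CPM in WT (SD, n = 4 each; edgeR adjusted p = 0.28). Nos2, the inducible form known from activated macrophages, had 0.0276 to 0.141 CPM in BAP1 KO and 0.0414 to 0.104 CPM in WT, at most 11 counts in BAP1 KO and 8 in WT, and was below the filter.

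Ligands of the natriuretic peptide receptors were also scarce, and of 5 tested genes of these peptides and their processing 2 were called higher (Nppb and Nppc), 1 lower and 2 did not pass. Over all genes tested, 61.1% were called. Nppb, which encodes B-type natriuretic peptide, had 1.67 to 1.93 CPM in BAP1 KO and 1.34 to 1.56 CPM in WT, without overlap (0.34 ± 0.11, edgeR adjusted p = 0.011). Nppc, which encodes C-type natriuretic peptide, was at 0.309 ± 0.089 CPM in BAP1 KO and 0.078 ± 0.038 CPM in WT (SD, n = 4 each; log2 fold change 1.94 ± 0.36), on at most 31 counts in BAP1 KO and 10 in WT. No WT library of Nppc reached the level of the filter, so it entered the test only through its BAP1 KO libraries, and nothing is read from its call. Nppa, for atrial natriuretic peptide, was at 0.187 ± 0.031 CPM in BAP1 KO and 0.159 ± 0.097 CPM in WT (SD, n = 4 each; edgeR adjusted p = 0.59). Mme, the protease neprilysin that degrades these peptides, was lower (-0.51 ± 0.13). Gucy1b2, an alternative beta subunit, had at most 1 count in a BAP1 KO library and 4 in a WT library, and Gucy2c, the intestinal receptor of guanylin, at most 1 in BAP1 KO and 6 in WT. Of 8 such cyclases and ligands listed, 2 were tested, of which 1 was higher and 1 did not pass.

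All 10 tested genes of other phosphodiesterases and exporters were called, 4 higher and 6 lower, where 61.1% of all genes tested were called. The calmodulin-dependent Pde1a (-0.89 ± 0.05), Pde1b (-0.51 ± 0.06) and Pde1c (-0.80 ± 0.13) were lower by edgeR, and so were Pde3a (-0.65 ± 0.03) and Pde3b (-0.97 ± 0.05), the cAMP phosphodiesterases that cGMP inhibits. Pde3b averaged 7.82 ± 0.59 CPM in BAP1 KO and 15.4 ± 0.74 CPM in WT (SD, n = 4 each; edgeR adjusted p = 4.6e-16). Pde2a, which cGMP stimulates, rose by 0.31 ± 0.03 (edgeR adjusted p = 5.1e-10) and Pde10a, a dual phosphodiesterase, by 0.57 ± 0.04 (edgeR adjusted p = 1.6e-14). Of the exporters of cyclic nucleotides, Abcc4 was at 19.6 ± 0.50 CPM in BAP1 KO and 27.4 ± 0.38 CPM in WT (-0.48 ± 0.04), and Abcc5 at 71.0 ± 1.1 CPM in BAP1 KO and 51.1 ± 0.54 CPM in WT (SD, n = 4 each; 0.47 ± 0.03).

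Of 11 tested substrates of the kinases and cGMP-gated channels, 5 were higher, 4 lower and 2 did not pass, where 61.1% of all genes tested were called. Kcnma1, the pore of the large-conductance potassium channel that protein kinase G opens, rose to 3.08 ± 0.21 CPM in BAP1 KO, against 1.13 ± 0.19 CPM in WT (SD, n = 4 each; 1.46 ± 0.11, edgeR adjusted p = 1.5e-12). Its beta-1 subunit Kcnmb1 was lower (-0.19 ± 0.05). The actin regulator Vasp rose by 0.21 ± 0.02 and Mrvi1, which couples the kinase to IP3 receptors, by 0.12 ± 0.02; Itpr1, the IP3 receptor, and the small heat shock protein gene Hspb6 rose by 0.11 ± 0.03 and 0.49 ± 0.04 (edgeR). Rgs2, a brake on G protein signalling, fell by 0.63 ± 0.03, and the cation channel gene Trpc6 fell to 0.804 ± 0.092 CPM in BAP1 KO, against 2.44 ± 0.093 CPM in WT (SD, n = 4 each; -1.60 ± 0.12, edgeR adjusted p = 5.2e-13).

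**Figure D4:**
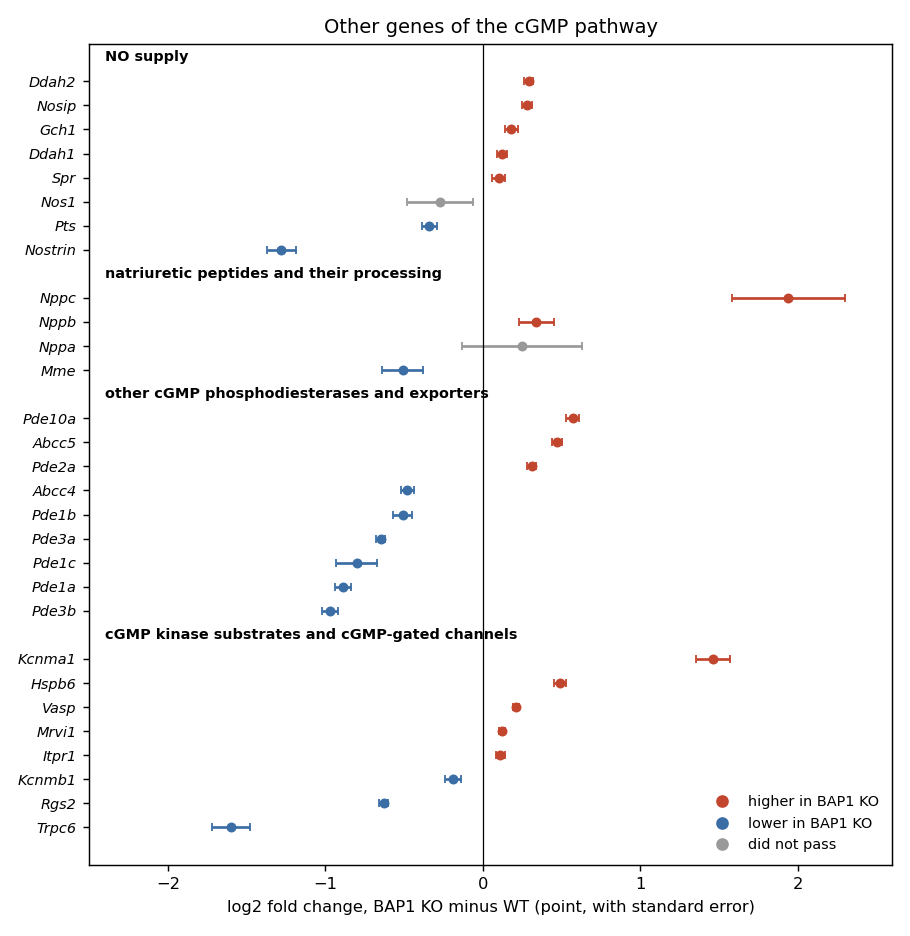
Log2 fold change, BAP1 KO minus WT (x axis), with its standard error, of the named and tested pathway genes other than the members, grouped by role (rows); red points passed as higher, blue as lower, and grey did not pass. Both directions occur in every group, from Trpc6 at -1.60 to Kcnma1 at 1.46, with Nppc, which passed the filter only through its BAP1 KO libraries, beyond that at 1.94.

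For comparison, the sister pathway of cAMP also moved both ways. Of 15 tested adenylyl cyclases and subunits of protein kinase A, 4 were higher, 8 lower and 3 did not pass (edgeR), with a median log2 fold change of -0.13. The shares over all genes tested were 29.0% higher and 32.1% lower. The largest changes among the cAMP genes called at 1 CPM or more were the cyclase Adcy4 (-1.04 ± 0.11), the regulatory subunit Prkar1b (-1.03 ± 0.04) and the cyclase Adcy5, which rose by 0.84 ± 0.03 to 62.0 CPM in BAP1 KO, against 34.8 CPM in WT. Whether the members differ from these genes was not tested.

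The genes with the pattern most like Gucy1b1 over the 8 libraries, by the root mean square difference of log2 CPM centred on each gene's mean, were Fcrls (0.069), Wdfy1 (0.086), Pgm5 (0.172), Thbs2 (0.251) and Fsd1 (0.264). Fcrls, a Fc receptor-like gene of macrophages and microglia, had 7.12 to 7.97 CPM in BAP1 KO, against 61.7 to 62.9 CPM in WT. Those most like Gucy1a1 were Hgf (0.044), the hepatocyte growth factor gene, Arg1 (0.057), whose arginase uses the same substrate as NO synthases, Hfe (0.060), Pamr1 (0.063) and Tnfrsf11b (0.067), which encodes osteoprotegerin. Arg1 averaged 26.6 ± 0.68 CPM in BAP1 KO and 93.0 ± 2.3 CPM in WT (SD, n = 4 each). The likeness rests on the difference between genotypes that all of these genes share.

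Which cells the members' RNA came from was not measured. Calls of markers are set beside a share of 61.1% called over all genes tested. The 10 smooth muscle markers, led by Acta2 and Tagln, summed to 12437 to 12627 CPM in BAP1 KO and 12257 to 12735 CPM in WT, which overlap (4 higher, 4 lower, 2 not passed). Most of that sum was Acta2 and Tagln, the 2 that did not pass. Among the others, Myh11 was higher, at 838.6 CPM in BAP1 KO and 667.2 CPM in WT. Myocd was lower, at 0.273 CPM in BAP1 KO and 0.99 CPM in WT. The 7 pericyte markers, led by Pdgfrb and Notch3, summed to 399.1 to 410.9 CPM in BAP1 KO and 386.6 to 408.9 CPM in WT, with Rgs5 and Higd1b below 0.5 CPM in every library (of 6 tested, 1 higher, 3 lower, 2 not passed). Most of that sum was Pdgfrb, at 366.2 CPM in BAP1 KO and 363.9 CPM in WT, which did not pass. Notch3 was higher, and Rgs5, Cspg4 and Abcc9 were lower. Rgs5, at 0.0414 to 0.123 CPM in BAP1 KO, passed the filter only through its WT libraries, at 0.276 to 0.493 CPM. Nothing is read from the Rgs5 call. The 9 endothelial markers, led by Kdr and Vwf, summed to 21.7 to 22.5 CPM in BAP1 KO and 31.5 to 32.3 CPM in WT, and Tek, Tie1 and Emcn were below 0.5 CPM in every library (of 7 tested, 2 higher, 4 lower, 1 not passed). The 6 fibroblast markers, led by Col1a1 and Pdgfra, summed to 8051 to 8405 CPM in BAP1 KO and 9300 to 10034 CPM in WT (5 lower, 1 not passed). Col1a1 made up most of that sum, at 7270 CPM in BAP1 KO and 8351 CPM in WT. The 5 platelet markers summed to 76.0 to 79.8 CPM in BAP1 KO and 144.4 to 153.4 CPM in WT, and Gp9 was below 0.5 CPM in every library (of 4 tested, 2 lower, 2 not passed). Nearly all of that sum was Pf4, at 76.8 CPM in BAP1 KO and 147.2 CPM in WT. Itga2b, the next highest, was at 1.19 CPM in BAP1 KO and 1.44 CPM in WT and did not pass. Ppbp, counted as lower, was at 0.0276 to 0.144 CPM in BAP1 KO and 0.493 to 0.635 CPM in WT. It passed the filter through its WT libraries, so nothing is read from its call. Some marker calls depended on the processing. Those of Lmod1 and Tek, lower, and Egfl7, higher, ended with DESeq2 and without some of the libraries. Tagln passed with library totals alone, and Itga2b without WT replicate 2. The part of these cell types, macrophages included, in the members' lower levels was not tested.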

How the data were processed

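RNA (0.5 µg per library, DNase-treated, TruSeq RNA v2, single-end 50 bp reads on a HiSeq4000, per the labels' protocols) was measured in 4 BAP1 KO and 4 WT libraries, grouped by the labelled genotype. The deposited counts are uniquely aligning reads per gene model, and the authors' RPKM carry a size-factor adjustment, both per the file headers. GSNAP and GRCm38 are named in the submitters' processing notes; the sources used here name neither the aligner's version nor the annotation. Totals of 67.1 to 84.9 M exceed the 30 M reads of the protocol. Symbols came from RefSeq GRCm38.p6 for 31049 of 36528 identifiers and from GENCODE vM21 for 78. The test was that of edgeR 4.0.16 in R 4.3.3: quasi-likelihood F test, TMM, filterByExpr, Benjamini-Hochberg adjustment over 16929 genes, threshold 0.05; it was tested on simulated data. Standard errors are the size of each log2 fold change over the root of its F. Adjusted p-values in the text are from this test unless another is named. RPKM were only described, and comparisons of RPKM between genes depend on the gene lengths of that unnamed annotation. Promoter windows are from RefSeq, which held 8 of the 10 members.

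The members and lists were chosen with earlier results of these data known. Named are Bap1, the members, pathway genes that passed at 1 CPM or more with 13 fixed others, the 3 largest changes of the cAMP list, neighbours, the 5 genes nearest in pattern to Gucy1b1 and to Gucy1a1, and the 2 highest markers per list. The other markers named, Msln and those below 0.5 CPM among them, were picked after their values were seen. Alternatives were other scalings (RLE, upper quartile, library totals), other filters, DESeq2 1.42.0, limma-voom 3.58.1 and each library left out.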

Additional observations from a re-analysis of the deposited data

Results flagged for a closer look

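In 4 of 92 groups of 4 libraries examined, 1 library stood apart from the other 3 by Dixon's criterion, where chance alone flags about 1 in 20 groups. Gucy1b1 in WT replicate 1 was at 15.4 CPM, above 14.5 to 14.6 CPM in the other WT libraries; without it the log2 fold change was -3.10. The others are single-digit counts. Gucy1b2 was at 0.0138 CPM (1 count) in BAP1 KO replicate 4 and at 0 in the other BAP1 KO libraries. Gucy2c was at 0.0144 CPM (1 count) in BAP1 KO replicate 1, and at 0.0887 CPM (6 counts) in WT replicate 1. In the BAP1 KO groups of Gucy1b2 and Gucy2c the other libraries were at 0. There any count is flagged, and the rate of 1 in 20 does not apply.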

How the results depend on the processing

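Over 15 alternatives (3 scalings, 2 filters, DESeq2, limma-voom and 8 left-out libraries) every member kept its direction, with Gucy1b1 from -3.16 to -3.09, Gucy1a1 from -1.84 to -1.77, Npr3 from -1.59 to -1.54 and Gucy1a2 from 0.26 to 0.33; Nos3 was not tested under the CPM filter. The number of members called lower was 8 or 9, the difference being Nos3, and 1 was higher throughout. Other pathway genes counted 14 to 17 higher and 12 to 14 lower. Genes near the members called higher numbered 1, not 2, with upper quartile factors or library totals alone, and 1 to 2 with a library left out, where Cwf19l2 was lost; they numbered 3 with RLE factors and DESeq2, where Ilf2 passed. Without WT replicate 3 Cwf19l2 was lost and Ilf2 passed. The cause was not tested. Signs turned only for genes that had not passed: Nppa (0.25) to -0.11 without WT replicate 4, Ints3 to 0.00 or 0.01 in 4 alternatives and Tars to 0.00 or 0.01 in 5. With a library left out these ran from -0.11 to 0.55 for Nppa, -0.02 to 0.01 for Ints3 and -0.01 to 0.01 for Tars. Bap1 ran from -0.26 to -0.24. No scaling moved the median of all genes by over 0.1. Depth limits Nos3, Nos2, Nppa and Nppc, which had few counts. No paired analysis was possible because the labels give no batch or pairing. They give no replicate numbers either, and those used here follow the order of the samples within each genotype.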
